A study of Homo sapiens with 11 samples.

Results

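The RAB genes encode the largest branch of the RAS superfamily of small GTPases, and their mRNA was followed in a breast and an ovarian cancer line with and without an excess of the microRNA miR-365a-3p. The members are the rows of the deposited table whose symbol is RAB followed by a number and, where present, a letter from A to D. This rule found 60 genes among 31325, and it uses the name of a gene and none of its values. RefSeq's gene table for GRCh38.p14 lists 59 of the 60 symbols as current, and RAB39 is an older symbol. Other small GTPases whose names lie outside the rule, such as RAB7L1 and the RABL genes, were counted with the partners of the RAB proteins.

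A RAB protein is a switch that recruits proteins to the surface of a membrane. With GTP bound it sits on the membrane of a given organelle or vesicle and holds effectors there, such as tethers, motors and sorting complexes, and with GDP bound it is extracted into the cytosol by a GDP dissociation inhibitor (GDI). Guanine nucleotide exchange factors (GEFs) turn the switch on, GTPase-activating proteins (GAPs) turn it off, and a lipid tail added by geranylgeranyl transferase anchors the protein in the membrane. In carcinoma cells RAB proteins govern the recycling of integrins and growth factor receptors, the release of exosomes and proteases and the degradation of cargo in lysosomes.

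The study asked how an overexpressed microRNA changes the expression of genes in cancer cells. MDA-MB-231 is an established human breast cancer line of basal-like type and SKOV3 an established human ovarian cancer line, for which the study names the derivative SKOV3.ip1. Each line was transfected with a miR-365a-3p mimic, a synthetic duplex that supplies the mature microRNA in excess, or with a control miRNA, so that the controls also carried a transfected small RNA and no array holds untransfected cells. There were 3 arrays with miR-365a-3p and 3 with control miRNA in the MDA-MB-231 line, and 3 with miR-365a-3p and 2 with control miRNA in SKOV3 cells, which makes 11 arrays in 4 groups. The labels give 48 h of treatment, whereas the description of the series gives 24 h. The replicates are numbered and nothing says that they came from separate cultures, so that p-values measure the spread between these arrays, which may be technical.

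A microRNA finds its targets mainly through its seed, the bases 2 to 8 from its 5′ end, which pair with the mRNA. The mature sequence of the transfected microRNA is shown because every comparison with treatment rests on it, with the seed in capitals, as RefSeq gives it for GRCh38.p14 at chr16:14309340-14309361 on the plus strand:
miR-365a-3p: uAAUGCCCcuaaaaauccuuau
The gene of miR-365b-3p at chr17:31575478-31575499, plus strand, gives a mature microRNA of the same 22 bases, and the complement of the seed, which a target would hold, is GGGCAUU. Whether the mRNAs of RAB genes hold this stretch was not searched here, and a fall of an mRNA below is therefore not a statement about direct targeting.

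Biotin-labelled cRNA was hybridized to Illumina BeadChips, and the values below are log2 signals that were quantile normalized across the 11 arrays. The number of arrays limits the precision. The deposited values did not share a distribution between treatments. Their 75th percentile lay between 7.56 and 7.65 on the miR-365a-3p arrays and between 7.86 and 7.93 on the control arrays of the MDA-MB-231 line, and between 7.67 and 7.80 against 7.98 and 8.04 in SKOV3 cells. The median signal of 76 ribosomal protein genes was higher with miR-365a-3p after normalization, at 12.76 to 12.80 against 12.30 to 12.67 in the MDA-MB-231 line and 12.44 to 12.58 against 12.14 to 12.21 in SKOV3 cells. The part of these shifts in the RAB results was not tested. Calls that change with the scaling are given for many members below, but not for every scaling of each member. The first miR-365a-3p arrays of the lines deviated from their groups together, with a correlation of 0.70 across 6853 genes, and those numbered 2 and 3 correlated less, at 0.31 and 0.34. The counts without both first arrays are given below. Of the markers of the lines, ERBB2 (7.61 against 10.86), EPCAM (7.63 against 10.36) and KRT19 (10.70 against 11.92) were higher in SKOV3 controls, and CDH1 and CLDN3 were called higher there too, though near the floor. CLDN4, CLDN7 and RBM35A, the older symbol of ESRP1, were not called. Of the mesenchymal markers, ZEB1 was called higher in MDA-MB-231 controls near the floor, and VIM (13.79 against 13.70), CD44 (11.26 against 10.47) and MSN (10.05 against 10.60, lower in MDA-MB-231) were not called.

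After treatment with miR-365a-3p, RAB genes moved in both directions. The deepest fall was that of RAB22A, the GTPase of early endosomal sorting, in both lines, and RAB8A, which carries vesicles from the Golgi to the plasma membrane, and RAB7A, which takes late endosomes to lysosomes, fell with it. Among the rises shared by the lines were RAB32 and RAB38, the related GTPases that deliver enzymes to lysosome-related organelles, RAB28, RAB18 and RAB23. These are calls after quantile normalization. Under all 4 scalings compared below, 0 members rose in both lines, and of the shared falls those of RAB22A and RAB8A remained. In the MDA-MB-231 line, 14 members rose and 10 fell by limma with a Benjamini-Hochberg adjusted p under 0.05 over all genes, against 14.4% and 11.7% of all genes. In SKOV3 cells, 8 rose and 6 fell, against 7.25% and 7.11% of all genes. In percent of the 60 members these counts are 23.3 and 16.7 in the MDA-MB-231 line and 13.3 and 10 in SKOV3 cells. The same direction was called in both lines for 5 members that rose and 3 that fell, against 5.76% and 5.39% of all genes, and 31 members were called in neither line.

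The share of called genes depends on the signal, since many genes lay at the floor of the scale. A mean over the 11 arrays above 8 was reached by 29 members and by 6853 genes in all. Among the 29, 12 rose and 7 fell in the MDA-MB-231 line, against 39% and 26.2% of the genes above 8. In SKOV3 cells 5 rose and 5 fell, against 23.4% and 15.3%. The members above 8 were thus called about as often as other genes of such signal. Their median log2 fold change was 0.08 in the MDA-MB-231 line and 0.14 in SKOV3 cells, and that of all genes above 8 was 0.17 and 0.15. Over all 60 members the medians were 0.01 in both lines, as over all genes.

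**Figure D1:**
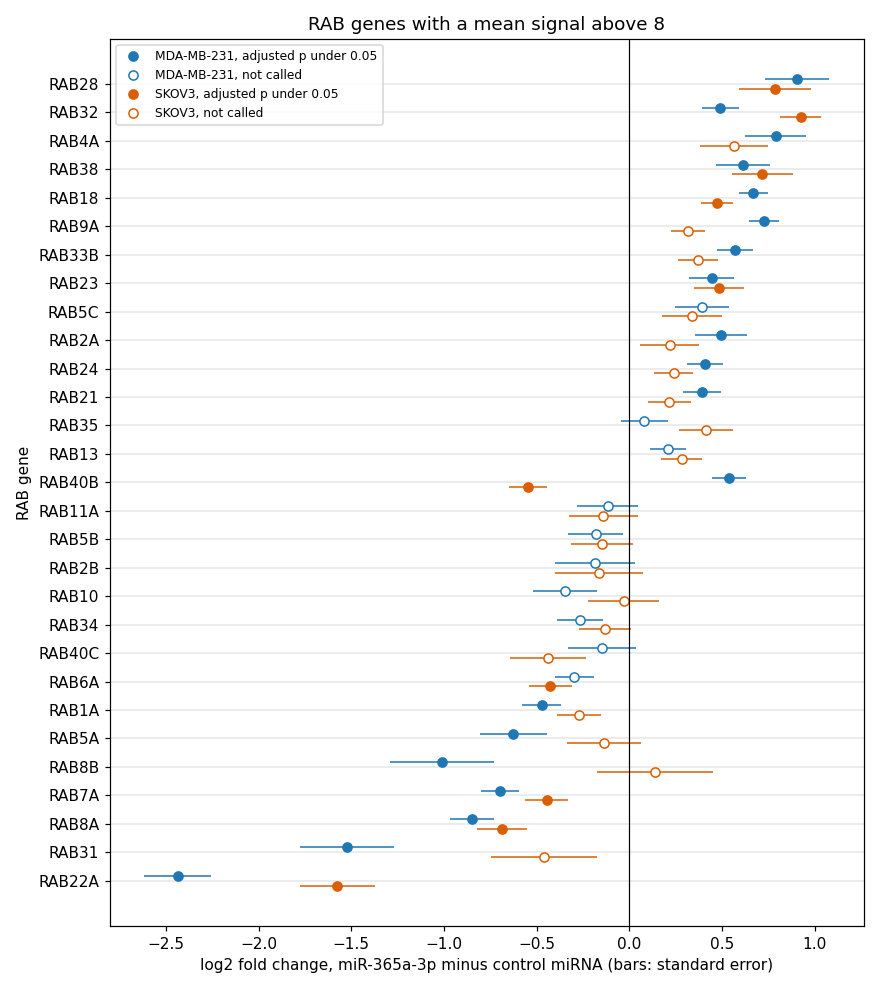
Log2 fold change of the 29 RAB genes with a mean signal above 8, as miR-365a-3p minus control miRNA, in MDA-MB-231 (blue) and SKOV3 (orange) cells, with standard errors as bars and filled points for an adjusted p under 0.05. RAB22A lies lowest in both lines, at -2.44 and -1.58, and RAB40B is the member whose filled points lie on both sides of 0.

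The balance of rises and falls depends on the scaling of the arrays. On the deposited values without further normalization, 4 members rose and 12 fell in the MDA-MB-231 line, and 2 rose and 12 fell in SKOV3 cells, with all genes at 7.26% and 17.9% and at 3.83% and 14%. The falls thus made up 41.7% of the calls in the MDA-MB-231 line after quantile normalization and 75% on the deposited values, and 42.9% and 85.7% in SKOV3 cells. The median of all genes above 8 shifted from 0.17 to -0.05 in the MDA-MB-231 line and from 0.15 to -0.004 in SKOV3 cells, so that a RAB gene was read against this shift. Under all 4 scalings, which add centring on the median and cyclic loess, 4 members rose in the MDA-MB-231 line (RAB18, RAB28, RAB30 and RAB9A) and 9 fell (RAB11B, RAB1A, RAB22A, RAB27A, RAB31, RAB5A, RAB7A, RAB8A and RAB8B). In SKOV3 cells, RAB17 and RAB32 rose and RAB22A, RAB36, RAB40B, RAB6A and RAB8A fell under all 4. In both lines and under all 4 scalings, RAB22A and RAB8A fell and 0 members rose.

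**Figure D2:**
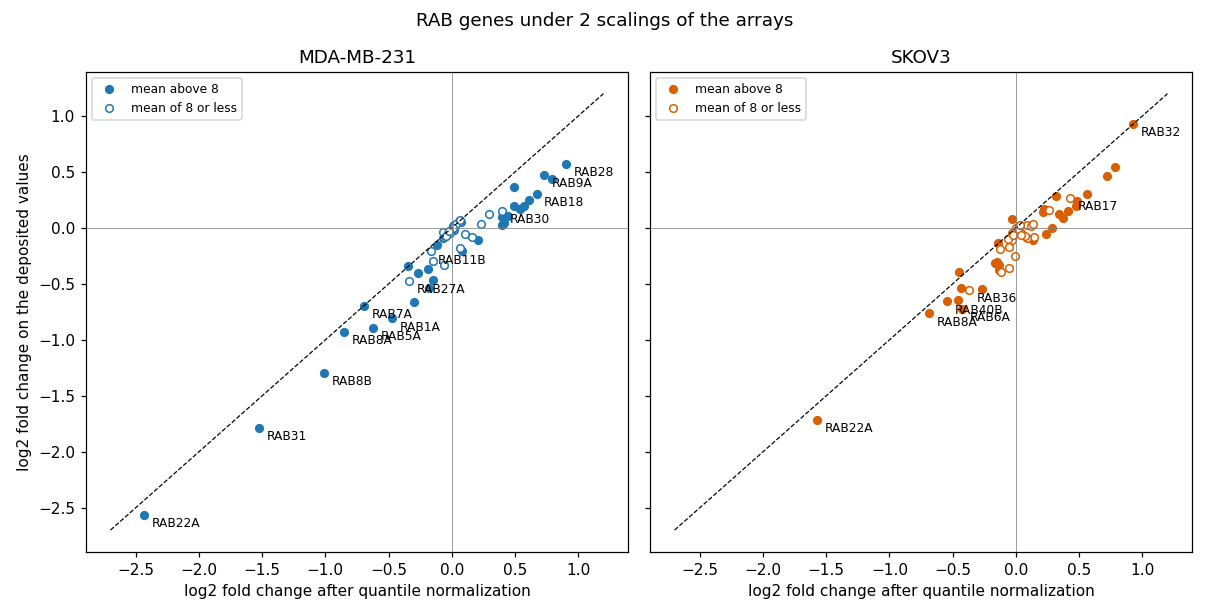
Log2 fold change of the 60 RAB genes after quantile normalization (horizontal axis) and on the deposited values (vertical axis) in each line, with the dashed line where both are equal and names for the members called in the same direction under all 4 scalings. Most points lie below the line, and RAB22A stays lowest on both axes at -2.44 and -2.56 in the MDA-MB-231 line and at -1.58 and -1.71 in SKOV3 cells.

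The early endosome is where internalized receptors are sorted, and 6 of its 7 members had a mean above 8. In the MDA-MB-231 line 3 of the 7 fell and 1 rose, and in SKOV3 cells 1 fell. Of all genes above 8, 26.2% fell and 39% rose in the MDA-MB-231 line, and 15.3% and 23.4% in SKOV3 cells. The counts by role here and below are small, and no role was tested as a set. RAB22A, which sorts cargo in the early endosome, stood at 10.17, 9.86 and 10.13 on the MDA-MB-231 control arrays and at 7.48, 7.67 and 7.70 with miR-365a-3p. In SKOV3 cells it stood at 9.54 and 9.55 on the control arrays and at 7.53, 8.34 and 8.05 with miR-365a-3p. Every miR-365a-3p array lay below every control array in both lines. The lowest values came close to the floor, where a difference may understate the change. The log2 fold change was -2.44 (standard error 0.181, limma adjusted p = 3.99e-05) in the MDA-MB-231 line, a 5.41-fold fall, and -1.58 (standard error 0.202, limma adjusted p = 0.00129) in SKOV3 cells, a 2.98-fold fall. An exact permutation of the treatment within the lines gave a two-sided p of 0.005, the smallest that 200 arrangements can give. This p follows from the lack of overlap in both lines and is no further support. The call held in each line under every alternative run, with values from -2.56 to -2.25 and from -1.76 to -1.35. The difference between the lines, -0.86, was not called (limma adjusted p = 0.191).

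RAB31, the closest relative of RAB22A and a carrier between the Golgi and endosomes, fell from 9.56, 9.48 and 9.65 to 7.74, 8.11 and 8.28 in the MDA-MB-231 line. Its groups did not overlap there, with a log2 fold change of -1.52 (standard error 0.255, limma adjusted p = 0.00238). In SKOV3 cells RAB31 stood at 9.28 and 9.15 on the control arrays and at 8.10, 9.20 and 8.95 with miR-365a-3p, and the groups overlapped. The log2 fold change there was -0.46 with a limma adjusted p of 0.417. The difference between the lines, -1.06, had a limma adjusted p of 0.264, so that the response of RAB31 was not shown to differ between them.

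RAB5A, which drives fusion of early endosomes, fell in the MDA-MB-231 line from 9.82, 9.51 and 9.74 to 8.69, 9.17 and 9.35, a log2 fold change of -0.62 (limma adjusted p = 0.0321). The SKOV3 value was -0.14 with a limma adjusted p of 0.819. The call in the MDA-MB-231 line was lost in 6 of the fits that left out 1 array, those without miR-365a-3p replicate 1 or 2, without control replicate 1 or 3 of the same line and without either SKOV3 control. Its paralogs RAB5B and RAB5C, which act at the same step, were called in neither line. RAB21, which handles integrins at the endosome, had a log2 fold change of 0.39 in the MDA-MB-231 line (limma adjusted p = 0.0207) that shrank to 0.09 on the deposited values and lost its call without miR-365a-3p replicate 2 or control replicate 2 or 3 of that line.

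Late endosomes and lysosomes have 8 members, 3 of them with a mean above 8. In the MDA-MB-231 line 2 rose and 1 fell, against 14.4% and 11.7% of all genes. In SKOV3 cells 2 rose, both of low signal, and 1 fell, against 7.25% and 7.11%. RAB7A, the GTPase that brings late endosomes to lysosomes, stood at 11.13, 11.10 and 11.34 on the MDA-MB-231 control arrays and at 10.30, 10.58 and 10.60 with miR-365a-3p. In SKOV3 cells it stood at 11.09 and 11.12 against 10.67, 10.80 and 10.51, and the groups did not overlap in either line. The log2 fold change was -0.70 (standard error 0.103, limma adjusted p = 0.00125) in the MDA-MB-231 line and -0.45 (standard error 0.115, limma adjusted p = 0.0331) in SKOV3 cells. The SKOV3 call was lost in 9 alternatives, among them the deposited values (-0.39, limma adjusted p = 0.076) and the fits without SKOV3 miR-365a-3p replicate 1 or 3 or without either SKOV3 control.

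RAB9A, which returns receptors from late endosomes to the Golgi, went the other way. In the MDA-MB-231 line its signal was 8.75, 9.03 and 8.66 on the control arrays and 9.54, 9.53 and 9.56 with miR-365a-3p, a log2 fold change of 0.73 (standard error 0.0822, limma adjusted p = 0.000322). The SKOV3 arrays held 10.21 and 10.24 against 10.52, 10.50 and 10.61, a log2 fold change of 0.32 that missed the threshold (limma adjusted p = 0.0514) and passed it with cyclic loess, at 0.35. The miR-365a-3p arrays lay above the control arrays in both lines. RAB24, known for autophagy, rose by 0.41 in the MDA-MB-231 line (limma adjusted p = 0.0122), and the rise came to 0.04 on the deposited values.

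Exocytosis and secretory organelles are served by 15 members, 6 of them with a mean above 8. In the MDA-MB-231 line 3 rose and 4 fell, against 14.4% and 11.7% of all genes. In SKOV3 cells 2 rose and 1 fell, against 7.25% and 7.11%. RAB8A, which carries vesicles from the Golgi to the plasma membrane and builds the primary cilium, fell in both. Its signal was 10.73, 10.54 and 10.96 on the MDA-MB-231 control arrays against 9.68, 9.93 and 10.07 with miR-365a-3p, and 9.99 and 10.04 against 9.42, 9.28 and 9.28 in SKOV3 cells. The groups did not overlap in either line. The log2 fold changes were -0.85 (standard error 0.12, limma adjusted p = 0.00102) and -0.69 (standard error 0.135, limma adjusted p = 0.00987). The exact permutation p of 0.005 again follows from the lack of overlap. In SKOV3 cells the call was lost where either of the control arrays was left out, at -0.71 and -0.66.

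RAB8B, the paralog of RAB8A, fell in the MDA-MB-231 line from 9.90, 9.68 and 9.39 to 8.28, 8.70 and 8.97, a log2 fold change of -1.01 (limma adjusted p = 0.027). In SKOV3 cells its miR-365a-3p arrays, at 8.32, 9.40 and 9.12, lay on both sides of the control arrays, at 8.84 and 8.78. The log2 fold change of 0.14 there was not called (limma adjusted p = 0.901) and turned to -0.11 on the deposited values. The difference between the lines was -1.15 and was not called (limma adjusted p = 0.273). The MDA-MB-231 call was lost without miR-365a-3p replicate 1 or 2 and without control replicate 1 or 2 of that line.

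RAB32 and RAB38, a pair of paralogs that guide cargo to lysosome-related organelles such as melanosomes, rose in both lines. RAB32 stood at 9.67, 9.98 and 9.58 on the MDA-MB-231 control arrays and at 10.29, 10.33 and 10.09 with miR-365a-3p, and at 10.36 and 10.35 against 11.33, 11.25 and 11.26 in SKOV3 cells. Its log2 fold changes were 0.49 (standard error 0.0997, limma adjusted p = 0.00616) and 0.92 (standard error 0.111, limma adjusted p = 0.000963), and the SKOV3 rise held under every alternative run. On the deposited values the change in the MDA-MB-231 line was 0.37 (limma adjusted p = 0.059).

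RAB38 stood at 8.02, 8.06 and 8.14 against 8.96, 8.63 and 8.47 in the MDA-MB-231 line and at 8.32 and 8.19 against 9.27, 8.84 and 8.80 in SKOV3 cells, with no overlap. The log2 fold changes were 0.61 (limma adjusted p = 0.0134) and 0.72 (limma adjusted p = 0.0196). They were 0.25 and 0.47 on the deposited values, where neither was called. The SKOV3 call was also lost without either SKOV3 control array.

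Between the endoplasmic reticulum and the Golgi, 16 members are active, 7 of them with a mean above 8. In the MDA-MB-231 line 4 rose and 1 fell, against 14.4% and 11.7% of all genes. In SKOV3 cells 1 rose and 2 fell, against 7.25% and 7.11%. RAB18, which acts at the endoplasmic reticulum and on lipid droplets, rose from 8.21, 8.03 and 7.89 to 8.74, 8.65 and 8.76 in the MDA-MB-231 line, and from 7.83 and 7.95 to 8.43, 8.38 and 8.28 in SKOV3 cells. The miR-365a-3p arrays lay above all control arrays in each line. The log2 fold changes were 0.67 (standard error 0.0779, limma adjusted p = 0.000377) and 0.48 (standard error 0.0871, limma adjusted p = 0.00728). Without the normalization across arrays they were 0.30, still called, and 0.20, not called, and the SKOV3 call was also lost without SKOV3 control replicate 1.

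RAB1A, which moves cargo from the endoplasmic reticulum to the Golgi, fell by 0.47 on the log2 scale in the MDA-MB-231 line (limma adjusted p = 0.0102), from 8.46, 8.54 and 8.59 to 7.90, 8.14 and 8.13. In SKOV3 cells it had a log2 fold change of -0.27 (limma adjusted p = 0.2). These changes were -0.81 and -0.55 on the deposited values, where the latter was still not called (limma adjusted p = 0.0524). RAB6A, the GTPase of retrograde Golgi transport, was called in SKOV3 cells, with 8.39 and 8.70 on the control arrays and 8.18, 8.04 and 8.13 with miR-365a-3p. Its log2 fold change there was -0.42 (limma adjusted p = 0.0438), and -0.72 on the deposited values. In the MDA-MB-231 line it was -0.30 (limma adjusted p = 0.0732) after quantile normalization, and it was called under the other 3 scalings, at -0.66 on the deposited values, -0.63 with centring on the median and -0.31 with cyclic loess. The SKOV3 call of RAB6A was lost in 12 alternatives, among them the fits without any of the SKOV3 miR-365a-3p arrays or without SKOV3 control replicate 2. RAB33B, which serves the Golgi and autophagosome formation, and RAB2A, of the intermediate compartment, rose in the MDA-MB-231 line by 0.57 and 0.50 on the log2 scale, and came to 0.20 each on the deposited values, where neither was called. The RAB2A call was also lost in 5 fits without 1 array of that line.

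RAB28, which takes part in intraflagellar transport, and RAB23, a negative regulator of hedgehog signalling, rose in both lines. RAB28 stood at 7.97, 8.13 and 8.15 against 9.17, 8.96 and 8.82 in the MDA-MB-231 line and at 7.95 and 8.0 against 9.19, 8.43 and 8.67 in SKOV3 cells. The groups were apart in both lines, with log2 fold changes of 0.91 (standard error 0.174, limma adjusted p = 0.00476) and 0.79 (standard error 0.195, limma adjusted p = 0.0282). The highest RAB28 values of both lines came from the first miR-365a-3p arrays. The same held for RAB38 and RAB4A, and the lowest values of RAB22A, RAB31, RAB8B and RAB5A came from these arrays too. The SKOV3 call of RAB28 was lost on the deposited values (0.55) and without either SKOV3 control array.

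RAB23 stood at 8.75, 8.35 and 8.47 against 9.09, 8.88 and 8.95 in the MDA-MB-231 line and at 8.62 and 8.50 against 9.09, 9.21 and 8.84 in SKOV3 cells. The log2 fold changes were 0.44 (limma adjusted p = 0.0238) and 0.49 (limma adjusted p = 0.0439). Of the members that rose in both lines it was the least stable, with 7 and 12 calls lost among the alternatives, 5 and 8 of them in fits that left out arrays. The changes came to 0.11 and 0.24 on the deposited values.

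The recycling endosome sends receptors back to the surface. Of its 8 members, 3 had a mean above 8. In the MDA-MB-231 line 1 rose and 1 fell, against 14.4% and 11.7% of all genes. In SKOV3 cells 1 rose, against 7.25%. RAB4A, the GTPase of fast recycling, stood at 8.07, 8.09 and 7.92 against 8.97, 8.80 and 8.69 in the MDA-MB-231 line, a log2 fold change of 0.79 (limma adjusted p = 0.00692) that was 0.44 and not called on the deposited values. The SKOV3 value was 0.57 (limma adjusted p = 0.0791). RAB11A, the abundant GTPase of slow recycling, was called in neither line, and RAB11B had a log2 fold change of -0.17 in the MDA-MB-231 line (limma adjusted p = 0.00724) at a mean of 7.37. The change of RAB11B in SKOV3 cells was -0.13 (limma adjusted p = 0.0646), and it was called under the other 3 scalings, at -0.19 on the deposited values.

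**Figure D3:**
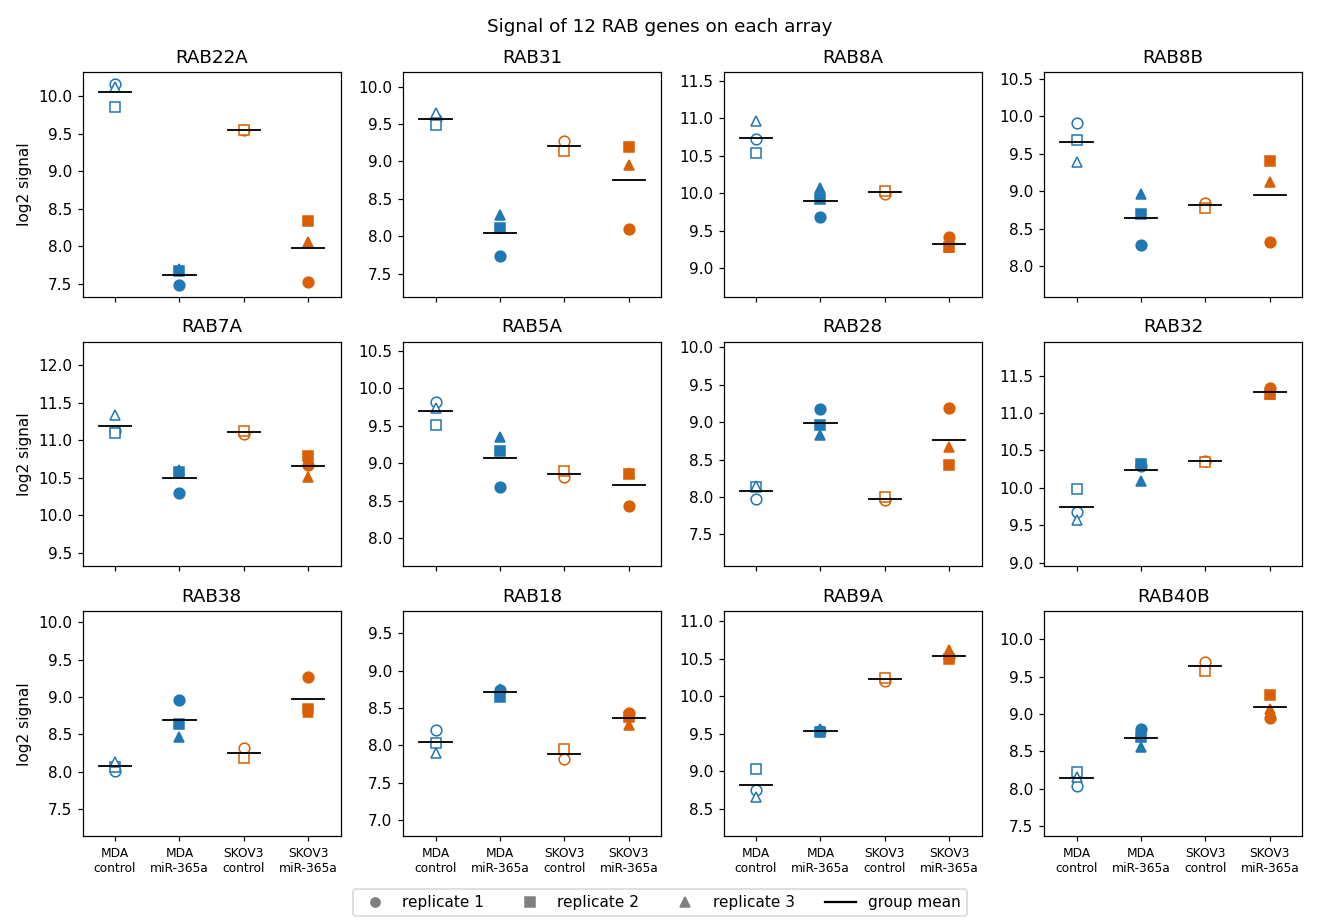
Log2 signal of 12 RAB genes on each of the 11 arrays, by cell line and treatment, with open symbols for control miRNA, filled symbols for miR-365a-3p, a shape for each replicate number and a line at the group mean. Each panel spans 3 log2 units around its own centre. RAB22A drops in both lines, RAB31 and RAB8B drop without overlap in the MDA-MB-231 line and overlap in SKOV3 cells, and RAB40B rises in one line and falls in the other.

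RAB40B, a member of the RAB40 group with a SOCS box that joins it to a ubiquitin ligase, was the 1 member called in opposite directions. In the MDA-MB-231 line it stood at 8.04, 8.22 and 8.16 on the control arrays and at 8.80, 8.69 and 8.55 with miR-365a-3p. In SKOV3 cells it stood at 9.70 and 9.58 on the control arrays and at 8.95, 9.26 and 9.07 with miR-365a-3p. The groups did not overlap in either line, and the control level was higher in SKOV3 cells. The log2 fold changes were 0.54 (standard error 0.0904, limma adjusted p = 0.00238) and -0.55 (standard error 0.101, limma adjusted p = 0.00755). Their difference was 1.09 (standard error 0.136, limma adjusted p = 0.00479). On the deposited values the rise in the MDA-MB-231 line was 0.17 and not called, while the fall in SKOV3 cells was -0.66 and was called. Without SKOV3 control replicate 1 the fall was -0.49 and not called. Its relative RAB40C, at a mean of 9.26, was called in neither line.

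The difference of response between the lines was called for 5 members, against 2.54% of all genes, and RAB40B was the only one of them with a mean above 8. RAB27A, which docks secretory granules and multivesicular bodies for exosome release, stood at 7.73, 7.76 and 7.78 on the MDA-MB-231 control arrays and at 7.38, 7.47 and 7.40 with miR-365a-3p. All 5 SKOV3 arrays lay between 7.37 and 7.43, so that the fall in the MDA-MB-231 line, -0.34 (limma adjusted p = 5.36e-05), ended at the SKOV3 level. RAB36, a Golgi GTPase that positions lysosomes, showed the mirror image, with 7.71 and 7.68 on the SKOV3 control arrays, 7.30, 7.32 and 7.37 with miR-365a-3p, and 7.26 to 7.37 on all MDA-MB-231 arrays. Its fall in SKOV3 cells was -0.37 (limma adjusted p = 0.000413).

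RAB17, an epithelial GTPase of transcytosis, stood at 7.54 and 7.43 on the SKOV3 control arrays and at 8.02, 7.91 and 7.83 with miR-365a-3p, a log2 fold change of 0.43 (limma adjusted p = 0.00131), and at 7.20 to 7.33 on all MDA-MB-231 arrays. Its difference of response was called after quantile normalization and under none of the other 3 scalings. With cyclic loess RAB17 was also called as a rise in the MDA-MB-231 line, at 0.16 (limma adjusted p = 0.0301). RAB12, which sends cargo from recycling endosomes to lysosomes, differed by less. Its log2 fold change in SKOV3 cells was 0.15 (limma adjusted p = 0.00649), which turned to -0.08 on the deposited values, to -0.04 with arrays centred on their median and to 0.08 with cyclic loess, none of them called. Signals this close to the floor may be compressed, which was not measured here, so that the size of these differences is uncertain.

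The lines also differed in the level of RAB genes with control miRNA. Among control arrays 7 members (11.7%) were higher in the MDA-MB-231 line and 11 (18.3%) in SKOV3 cells, against 7.76% and 8.34% of all genes. The other 42 were not called. The share called depends on the signal, and no share of genes above 8 is given for this comparison. The values are levels in bulk RNA, in which fewer cells of a type and less RNA per cell cannot be told apart. Higher in SKOV3 cells were RAB40B by 2.82-fold (limma adjusted p = 1.98e-05) and RAB9A by 2.66-fold (limma adjusted p = 1.57e-05). RAB2A stood at 9.76 and 9.68 on the SKOV3 control arrays against 8.63, 8.77 and 8.70 on those of the MDA-MB-231 line, a 2.03-fold difference (limma adjusted p = 0.00223). RAB40C, at 9.96 and 9.86 against 9.01, 8.91 and 9.10, and RAB21, at 9.59 and 9.70 against 8.84, 8.75 and 8.80, were also higher in SKOV3 cells, by 1.86-fold and 1.81-fold. The RAB40C call was lost without either SKOV3 control and without MDA-MB-231 control replicate 2.

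Higher in the MDA-MB-231 line was RAB34, a Golgi GTPase needed to form cilia, with 9.94, 9.99 and 10.16 against 9.08 and 8.89, a 2.07-fold difference (limma adjusted p = 0.000869). RAB5A was higher by 1.79-fold (limma adjusted p = 0.0207), and RAB8A by 1.66-fold (limma adjusted p = 0.00563). RAB35, of fast recycling and cytokinesis, stood at 9.37, 8.87 and 9.12 against 8.50 and 8.32, and RAB13, of tight junctions and cell migration, at 8.82, 8.76 and 8.62 against 8.27 and 8.29. The groups of these 5 genes did not overlap. The calls of RAB8A, RAB5A and RAB13 were lost without SKOV3 control replicate 1, those of RAB35, RAB5A and RAB13 without replicate 2, and those of RAB5A and RAB13 also without MDA-MB-231 control replicate 1. The call of RAB5A was lost without MDA-MB-231 control replicate 3 and on the deposited values too, and that of RAB13 without MDA-MB-231 control replicate 2.

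**Figure D4:**
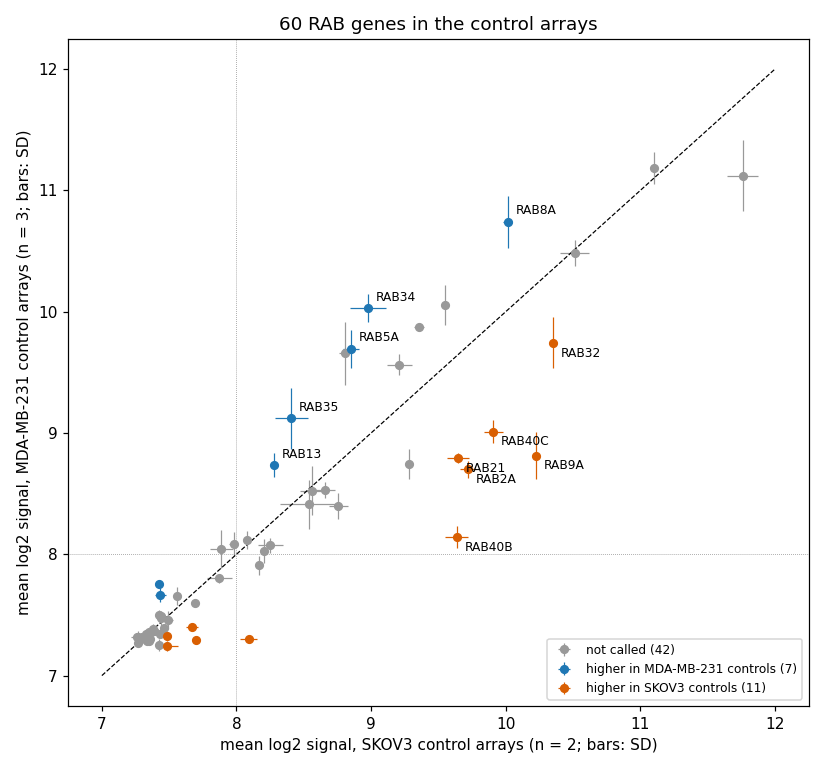
Mean log2 signal of the 60 RAB genes on the control arrays of SKOV3 (horizontal axis, n = 2) and MDA-MB-231 (vertical axis, n = 3), with SD bars, the dashed line of equal level and dotted lines at 8. RAB34, RAB5A, RAB8A, RAB35 and RAB13 lie above the line, RAB40B, RAB9A, RAB2A, RAB40C, RAB21 and RAB32 below it, and the members in the lower left corner lie near the floor.

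The remaining members were called in neither line with treatment after quantile normalization. With a mean above 8 these were RAB2B, RAB5B, RAB5C, RAB10, RAB11A, RAB13, RAB34, RAB35 and RAB40C, among them RAB10 with the highest mean of all members at 11.31. At a mean of 8 or less they were RAB1B, RAB3A, RAB3B, RAB3C, RAB3D, RAB4B, RAB6B, RAB6C, RAB7B, RAB14, RAB19, RAB20, RAB25, RAB26, RAB33A, RAB37, RAB39, RAB39B, RAB40A, RAB41, RAB42 and RAB43, with means from 7.25 for RAB39B to 7.79 for RAB1B. They include all 4 members of the RAB3 group, which drives regulated exocytosis, and RAB25, the epithelial member of the RAB11 group. RAB14, which acts at the Golgi and endosomes of most cells, was among them at 7.36. Under other scalings some of them were called. RAB1B, which acts like RAB1A, fell in both lines on the deposited values, by 0.34 and 0.39, and with centring on the median, by 0.30 and 0.36. RAB26 and RAB4B fell in SKOV3 cells on the deposited values, by 0.36 and 0.25, as did RAB6B, RAB3A and RAB41 by 0.17 or less, and RAB26 was called as a rise of 0.29 in the MDA-MB-231 line with cyclic loess. Differences near the floor may be compressed, so that a missed call does not show that such a gene did not move. Called at a mean of 8 or less in addition to those above were RAB30 (0.39), RAB27B (0.29) and RAB15 (-0.15) in the MDA-MB-231 line and RAB9B (0.27) in SKOV3 cells. The RAB9B call was lost without either SKOV3 control and with each line fitted alone. It was also lost on the deposited values (0.16) and with centring on the median (0.20). The RAB15 call was lost in 13 of 20 alternatives, 7 of them fits without 1 array. Cyclic loess (-0.11), array weights and both replicate blocks were among the others. With cyclic loess RAB30 was also called in SKOV3 cells, at 0.18 (limma adjusted p = 0.0220). The exosome GTPases RAB27A and RAB27B were called in opposite directions in the MDA-MB-231 line, a pair of low signal singled out after the values were seen, and the rise of RAB27B was 0.13 and not called on the deposited values.

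The members differ in the sequence at their start, which the rule did not use. RefSeq promoters of GRCh38.p14, each 250 bases before and 50 after the start of a gene, were found for 47 of the 60 members and not for 13. The dinucleotide CG is dense in CpG islands and reads the same on both strands. It occurred 31 times in the median promoter of the 25 matched members with a mean above 8, and 17 times in that of the 22 others. The counts overlapped, with 12 to 52 in the former and 2 to 35 in the latter. The median of 27305 promoters of all genes was 14, and 95.8% of them hold at least 1 CG. The 250 bases before the start are shown for RAB22A, the member that fell most, and for RAB17, a low epithelial member, with each CG in capitals, at chr20:58309465-58309714 on the plus strand and chr2:237590735-237590984 on the minus strand:
RAB22A: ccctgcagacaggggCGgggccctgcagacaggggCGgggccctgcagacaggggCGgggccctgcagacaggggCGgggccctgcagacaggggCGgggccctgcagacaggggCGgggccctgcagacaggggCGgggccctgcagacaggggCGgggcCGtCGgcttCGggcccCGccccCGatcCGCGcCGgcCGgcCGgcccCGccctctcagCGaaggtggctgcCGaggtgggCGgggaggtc
RAB17: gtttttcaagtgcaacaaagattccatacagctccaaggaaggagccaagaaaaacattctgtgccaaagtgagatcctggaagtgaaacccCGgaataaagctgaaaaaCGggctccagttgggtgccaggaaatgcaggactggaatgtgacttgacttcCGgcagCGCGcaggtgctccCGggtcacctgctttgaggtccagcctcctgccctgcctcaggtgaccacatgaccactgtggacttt
The stretch of RAB22A holds 22 CG in 80.8% G and C, and that of RAB17 holds 6 in 52.8%. With 7 CG in its full promoter, RAB17 lies below the median of the members of low signal and does not stand for them. These are features of the sequence, and the arrays do not measure how a promoter works.

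The proteins that switch RABs on and off or act for them were counted from a list of 171 measured genes. In the MDA-MB-231 line 25 of them rose and 57 fell, which is 14.6% and 33.3% against 14.4% and 11.7% of all genes, and in SKOV3 cells 14 rose and 28 fell, which is 8.19% and 16.4% against 7.25% and 7.11%. On the deposited values the counts were 12 and 88 in the MDA-MB-231 line and 7 and 61 in SKOV3 cells, where all genes stood at 7.26% and 17.9% and at 3.83% and 14%, with more falls than rises as well. Of the partners, 17 GEFs, 14 GAPs and 27 effectors had a mean above 8. Among all genes above 8, 39% rose and 26.2% fell in the MDA-MB-231 line, and 23.4% and 15.3% in SKOV3 cells, after quantile normalization. The part of the signal level in the share of partners that fell was not tested. Of 47 GEFs, 6 rose and 16 fell in the MDA-MB-231 line and 3 rose and 10 fell in SKOV3 cells. Of 39 GAPs, 6 rose and 13 fell in the MDA-MB-231 line, and 4 rose and 4 fell in SKOV3 cells. Of 70 effectors, 9 rose and 26 fell in the MDA-MB-231 line, and 5 rose and 11 fell in SKOV3 cells. The median log2 fold change was -0.06 for both GEFs and GAPs and -0.10 for effectors in the MDA-MB-231 line, and between -0.04 and -0.02 for the 3 lists in SKOV3 cells, against 0.01 over all genes in each line.

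GAPVD1, an exchange factor of RAB5 on endocytic membranes, fell from 8.86, 8.33 and 8.72 to 7.41, 7.57 and 7.55 in the MDA-MB-231 line and from 8.75 and 8.67 to 7.42, 7.62 and 7.54 in SKOV3 cells. Its log2 fold changes were -1.12 (limma adjusted p = 0.000257) and -1.19 (limma adjusted p = 0.00074), and the lower values are close to the floor. KIF20A, a kinesin that binds RAB6 and is also needed in mitosis, had log2 fold changes of -1.26 and -1.0 (limma adjusted p = 0.00088 and 0.00959). EVI5, a protein with the TBC domain of RAB GAPs, had log2 fold changes of -0.88 and -1.20 (limma adjusted p = 0.00662 and 0.0049). These 3 were the partners with the deepest mean fall among those called in both lines, and the groups did not overlap.

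The 3 partners with the highest mean rise among those called in both lines were RABGGTB, RABL3 and C5orf44. RABGGTB, the beta subunit of the geranylgeranyl transferase that lipidates RAB proteins, rose from 10.10, 10.50 and 10.09 to 11.45, 11.26 and 11.10 in the MDA-MB-231 line and from 8.78 and 8.74 to 9.70, 9.31 and 9.34 in SKOV3 cells, with log2 fold changes of 1.04 and 0.69 (limma adjusted p = 0.000974 and 0.0233). They were 1.04 and 0.50 on the deposited values, and the latter was not called. The SKOV3 rise was not called with centring on the median (0.54) or with cyclic loess (0.51) either. RABL3, a RAB-like GTPase, rose by 0.94 and 0.73, and C5orf44, the older symbol of the TRAPP complex subunit TRAPPC13, by 0.87 and 0.77 (limma adjusted p = 0.00439 or less in each). Of the 7 genes of GDI, escort and prenylation, 2 rose and 2 fell in the MDA-MB-231 line and 1 rose and 1 fell in SKOV3 cells. RABAC1, a prenylated RAB acceptor, rose by 1.26 in the MDA-MB-231 line (limma adjusted p = 0.00371) and had a log2 fold change of 0.18 in SKOV3 cells (limma adjusted p = 0.812). GDI2, the abundant dissociation inhibitor, had log2 fold changes of 0.02 and 0.25 and was called in neither. RAB7L1 and RASEF, of the 8 other genes named after RABs, were not called, while RABL2A and RABL2B, close copies whose probes may read each other, fell in SKOV3 cells by 0.29 and 0.58.

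**Figure D5:**
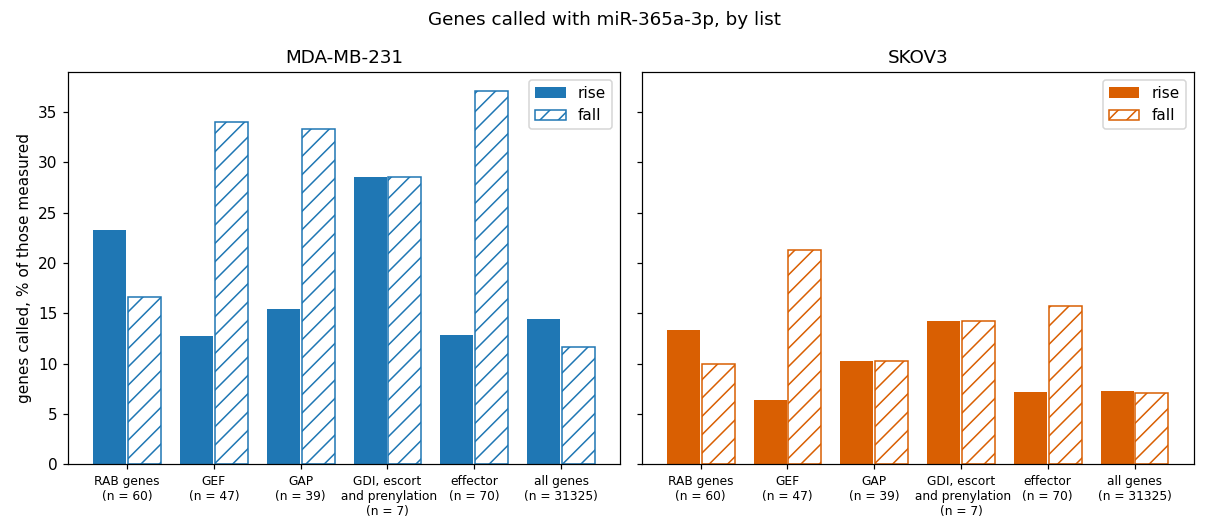
Share of genes called as rising (filled bars) or falling (hatched bars) with miR-365a-3p in each line, in percent of the genes measured, for the RAB genes, the partner lists and all genes after quantile normalization. The GEF and effector bars are taller for falls than for rises in both lines, whereas the RAB bars are taller for rises, an order that turns on the deposited values.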

How the data were processed

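mRNA of cells of the lines MDA-MB-231 and SKOV3 was read on 11 Illumina BeadChip arrays, grouped by the sample labels. The authors amplified RNA to biotin-labelled cRNA, applied the quantile method of lumi, and the deposited table holds 1 log2 value for each gene symbol on each array. The background correction, the transformation and the rule that combined probes are not given in the sources used here, nor are chip positions. The deposited columns did not share a distribution and were quantile normalized with limma 3.58.1 in R 4.3.3. All 31325 genes were then fitted with 4 group means (lmFit, eBayes), and p-values were adjusted by Benjamini-Hochberg over all of them (threshold 0.05). Exact permutations of the treatment within lines used 200 arrangements.

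Named members were those called in both lines in the same direction without overlap, the 5 largest control differences in each direction above a mean of 8, members whose response differed, and the 3 partners with the largest rise and fall. Lack of overlap was part of this rule for the members called in both lines and is no further support for them. Of the 60 members, 12 lay above and 7 below the controls without overlap in both lines. Further members were described by role after their values were seen. The members and lists were chosen with earlier results of these data known. On simulated data the fit recovered 73.5% of 200 genes given a log2 change of 1 among 31325 in MDA-MB-231 cells, with 7 false calls, and 66% in SKOV3 cells, with 8. The simulated noise was independent between arrays and held no shift of the distribution between treatments. These false calls therefore do not give the error of the calls on the real arrays. Alternatives were 3 other scalings, a filter, blocks, variance models, array weights, thresholds and arrays left out. The block shared by the lines and the fit without both first miR-365a-3p arrays were added after seeing the data.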

Additional observations from a re-analysis of the deposited data

Results flagged for a closer look

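The response to miR-365a-3p differed between the lines by the interaction test of limma for 5 members. The difference, MDA-MB-231 minus SKOV3 on the log2 scale, was 1.09 for RAB40B, 0.384 for RAB36, -0.297 for RAB27A, -0.375 for RAB17 and -0.218 for RAB12. RAB40B moved in opposite directions with every array on its side after quantile normalization. On the deposited values its MDA-MB-231 arrays overlapped between treatments. Its rise in that line was 0.17 there and 0.20 with centring on the median, and neither was called. For RAB36, RAB27A and RAB17 the line without a call stayed near the floor, and for RAB12 both lines lay below 8. The RAB12 difference was lost under all 3 other scalings (-0.01 on the deposited values), under both replicate blocks, with the intensity trend and without SKOV3 control replicate 1. The RAB17 difference was lost under all 3 other scalings (-0.206 on the deposited values) and in 9 of the 11 fits without 1 array, all but those without SKOV3 miR-365a-3p replicate 1 or 3. The differences of RAB40B (0.82 on the deposited values), RAB36 (0.58) and RAB27A (-0.37) were lost, among the refits, with the replicate block within each line alone.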

How the results depend on the processing

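Of 1220 alternative values of members called in a comparison, 1046 kept direction and call, 172 kept the direction and lost the call and 2 reversed, both of RAB12 in SKOV3 cells (-0.082 on the deposited values and -0.045 with arrays centred on the median). Counts are given as members that rose in MDA-MB-231 (14 in the reported fit), fell in MDA-MB-231 (10), rose in SKOV3 (8), fell in SKOV3 (6), rose in both (5), fell in both (3), were higher in MDA-MB-231 controls (7) or SKOV3 controls (11), or differed in response (5), and only counts that moved by over 1.5 times follow. On the deposited values 4 rose in MDA-MB-231, 2 rose and 12 fell in SKOV3, 0 rose and 5 fell in both, and 17 were higher in SKOV3 controls. With centring on the median these were 7, 3, 10, 1, 5 and 17. With cyclic loess 5 fell in both. With genes above 8 alone, 1 differed in response. Each line fitted alone gave 5 rises and 3 falls in SKOV3 and 3 rises in both. With array weights 13 rose in SKOV3, 8 rose and 5 fell in both, 17 were higher in SKOV3 controls and 9 differed in response. With an adjusted p under 0.01, 9 rose and 6 fell in MDA-MB-231, 4 rose in SKOV3, 2 rose in both, 4 were higher in MDA-MB-231 controls and 3 differed in response. With a log2 fold change of at least 0.5, 7 rose and 6 fell in MDA-MB-231, 3 rose and 3 fell in SKOV3, 2 rose in both, 4 and 7 differed between controls and 1 in response. Without the first miR-365a-3p array of both lines, 11 were higher in MDA-MB-231 controls and 8 differed in response. The cause of these shifts was not tested.

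Leaving out 1 array at a time, the counts ran from 11 to 16 (rose in MDA-MB-231), 7 to 11 (fell in MDA-MB-231), 2 to 10 (rose in SKOV3), 3 to 8 (fell in SKOV3), 1 to 7 (rose in both), 1 to 4 (fell in both), 3 to 10 and 8 to 14 (higher in MDA-MB-231 and SKOV3 controls) and 3 to 8 (difference of response). The lowest SKOV3 counts came without SKOV3 control replicate 1, where the control left was assumed to vary like the other groups. Without SKOV3 control replicate 2, 4 rose and 3 fell in SKOV3 and 2 rose and 1 fell in both.

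Deviations of miR-365a-3p and control arrays with the same replicate number in a line had correlations of -0.12 to 0.23 across 6853 genes. Deviations within groups of 2 or 3 arrays depend on one another, so that these values cannot decide whether the numbers pair the arrays. With the replicate block within each line, 3 members fell in SKOV3 and 1 differed in response. Signals near the floor limit what can be seen for 31 members.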
